A study of Rattus norvegicus with 6 samples.

Results

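Of the 1775 REST sites in iQNP and the 778 in TAP, 129 and 38 lay within an annotated repeat. A site was taken as a repeat site when its annotation placed it in an intron or between genes and named a repeat with its class and family. The cells were HCN cells, a line of rat adult hippocampal neural stem cells. They proliferated in FGF2 (TAP conditions), or were made quiescent by adding BMP4 to FGF2 (iQNP conditions). No transgene or knock-down is named for either group. ChIP-seq was run once per condition with a commercial antibody to REST and once with a mixture of homemade ones, giving 2 ChIP libraries a condition, beside 1 input. The tables name the libraries of a condition by number, and number 1 was taken as antibody 1 of the sample titles. The titles do not say which antibody that is, and antibody 1 was taken as the commercial one. Each value given by antibody rests on both matches. Libraries of a condition thus differ by reagent as well as by chance, and p-values measure only that spread.

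REST is a zinc-finger repressor that binds a long DNA element, RE1, and recruits corepressors to neuronal genes. In neural stem cells it is known for holding neuronal genes down before differentiation. Most of the annotated repeats here are copies of mobile elements that have spread through the genome. The annotation also names simple repeats, stretches of low complexity and rRNA copies. Among the mobile elements, LTR elements derive from endogenous retroviruses, LINEs and SINEs copy themselves through RNA, and DNA elements move as DNA. RE1-like sequences are known to occur in some of these elements, so that one family can place many similar sites next to unrelated genes.

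The total and the normalized tags gave depths of 25.2 to 29.8, in units of 1000000 tags. Normalized tags are tags in the peak window scaled to 10000000 tags per library. Input is given as tags scaled to the depth of the ChIP library, and the fold over input is the ratio of the total tags to that input. In every library the deposited sites began at a fold of 4.01 to 4.06. Positions are given on rn4, and the gene beside a site is the one whose start is nearest, which does not show that the site acts on it.

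Repeat sites were 7.27% of all iQNP sites (95% Wilson interval, 6.15 to 8.57) and 4.88% of all TAP sites (3.58 to 6.63). Both intervals allow for counting error alone. They overlap, which does not decide whether the shares differ, and the difference was not tested. In iQNP 99 of the sites lay between genes and 30 in introns; in TAP the numbers were 31 and 7. The iQNP sites carried 68 repeat names in 19 families, and 51 of the names occurred once. LTR elements held 57 of the 129 sites in iQNP and 22 of the 38 in TAP. LINEs followed with 35 and 9 sites, SINEs with 17 and 4, and DNA elements with 6 and 2. The other 14 iQNP sites lay in simple repeats (4), rRNA copies (4), RMER1 elements of the class named Other (5) and a GC-rich stretch of low complexity (1). The only TAP site outside these LTR, LINE, SINE and DNA classes was in a simple repeat.

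Within the LTR class, ERV1 gave 25 iQNP sites and MaLR gave 22, while ERVK gave 7 and ERVL 3. One element stood behind the ERV1 count: RMER21A was named at 24 of the 25 ERV1 sites in iQNP and at 9 of the 10 in TAP. The MaLR sites, in contrast, were spread over 17 names. L2, an old LINE family, gave 14 iQNP sites and 6 TAP sites, and L1, the LINE family that is still active in rodents, gave 16 and 2. No TAP repeat site was found in 7 families with 23 iQNP sites in all: B4 (6), Other (5), rRNA (4), Alu (3), B2 (2), Tip100 (2) and low complexity (1).

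**Figure D1:**
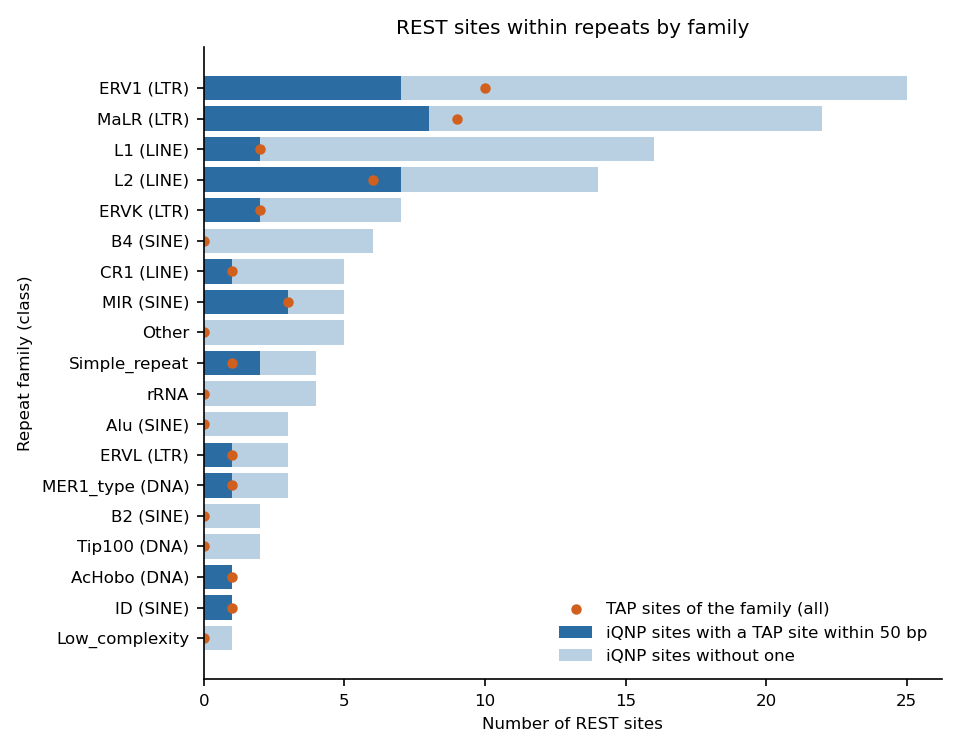
REST sites within repeats by family. Bars show the number of iQNP sites, dark where a TAP site lay within 50 bp and light where none did, and points show the number of TAP repeat sites. ERV1 and MaLR have the longest bars, with 25 and 22 sites, and the 6 B4 sites are all without a TAP site.

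The highest site of each family differed widely in tags. In iQNP the 5 repeat sites with the most tags were a pair of L2 sites near Tll1 and Cpe, the RMER19A site near Galr1, and the RMER21A sites near RGD1560691 and Ccnc. The same 5 loci were the highest in TAP, in the same order. Galr1 encodes a galanin receptor, Cpe the carboxypeptidase E that trims neuropeptide precursors, Tll1 a tolloid-like protease, and Ccnc cyclin C. The highest MaLR site was MLT1D near LOC500990 with 58.9 normalized tags (commercial) and 37.6 (homemade) in iQNP. The highest L1 site was Lx7 near Cdk4, the cyclin-dependent kinase, with 38.3 and 27.2. The highest B4 site was B4A near Mpped1 with 36.9 and 27.9, and it had no TAP site within 50 bp.

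Apart from the rRNA copies, which are described below, the remaining families with at least 2 iQNP sites were lower. The LTR52 site near Kif2a (ERVL), which encodes a kinesin that takes microtubules apart, had 34.4 normalized tags (commercial) and 23.2 (homemade). The (CA)n site near Fam210b had 27.3 and 22.5, the MIRb site near Msl3l2 had 29.1 and 17.8, and the MER5B site in Kcnip1, a potassium channel-interacting protein, had 27.0 and 20.1. The PB1D10 site near Rps15a (Alu) had 18.4 and 11.1, and the L3 site near Ddx1 (CR1) had 14.5 and 14.4. The lowest of these family maxima were Zaphod near Tex36 (11.7 and 9.74) and B3 in Nlgn1 (9.93 and 6.72), which encodes the synaptic adhesion protein neuroligin. At each of the sites named in this paragraph the commercial value was above the homemade one.

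RMER21A was the most frequent single element. Its 24 iQNP sites lay on 14 chromosomes, were nearest to 24 different genes and ranged from 5.18 to 84.05 mean normalized tags, with a median of 16.9. The highest was at chr17:83929970-83930039 in an intron of RGD1560691, with 111.4 normalized tags (commercial) and 56.7 (homemade). The lowest was at chr8:104081973-104082023 near Cep70, a centrosomal protein, with 5.32 and 5.04. The median fold over input of the RMER21A sites was 37.6 (commercial) and 26.3 (homemade) in iQNP, above the 19.1 and 15.0 of the other repeat sites. In TAP the 9 RMER21A sites had medians of 11.9 and 9.59, and the other repeat sites had 12.2 and 13. RMER21A thus lay above the other repeats in iQNP with both antibodies. In TAP it was close to them with the commercial antibody and below them with the homemade ones. The 24 iQNP and 9 TAP sites are different sets, and the change was not tested.

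In TAP the highest RMER21A site was the one in RGD1560691 (37.7 and 28.6 normalized tags with the commercial and homemade antibodies), and the lowest was at chr12:9209258-9209320 near Rnf6 (7.39 and 6.35), a ubiquitin ligase. A TAP site lay within 50 bp of 6 of the 24 iQNP sites (25%; 95% Wilson interval, 12 to 44.9). They were the sites near Ccnc, LOC685046, Smn1, RGD1560691, Cyld and Nptx1. Smn1 encodes the survival motor neuron protein, Cyld a deubiquitinase and Nptx1 a pentraxin secreted at synapses. At Ccnc the 2 iQNP libraries had 92.6 and 64.5 normalized tags and the 2 TAP libraries 26.1 and 23.4. At LOC685046 they had 40.1 and 30.6 against 15.9 and 19.9, and at Cyld 40.1 and 25.5 against 10.5 and 11.1. At Nptx1 they had 23.1 and 14.1 against 8.17 and 6.75. In these 6 pairs both iQNP libraries lay above both TAP libraries, as they did at 92.7% of all 756 sites shared by the conditions.

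**Figure D2:**
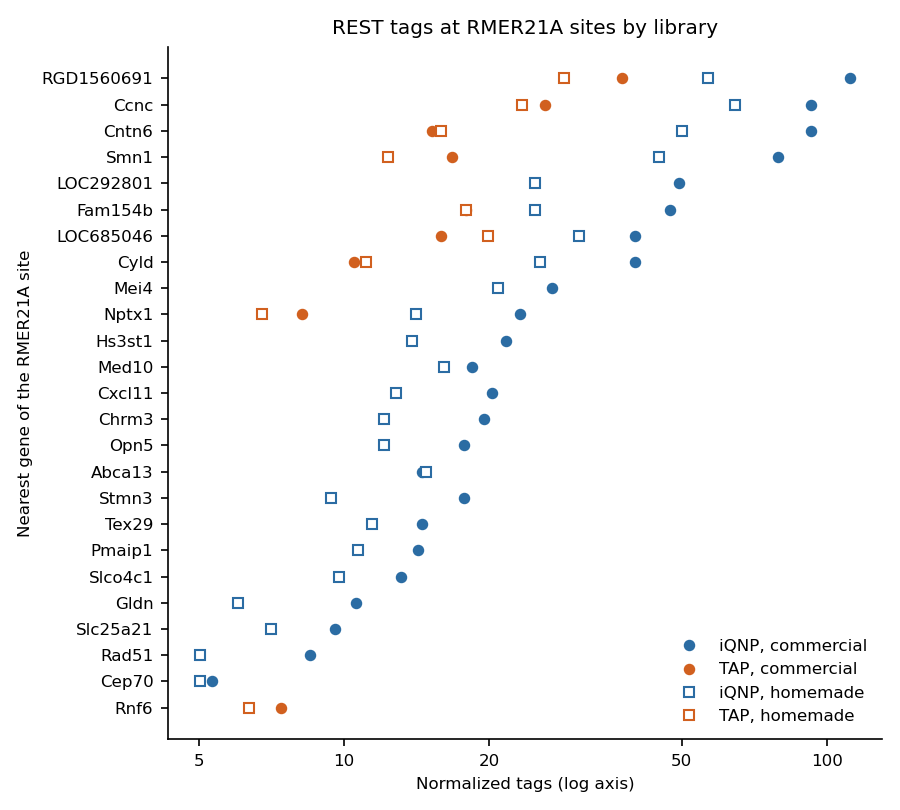
Normalized tags (log axis) at every RMER21A site by library, with the nearest gene on the vertical axis. Blue marks are iQNP and orange marks TAP, circles the commercial and squares the homemade antibodies. The lowest iQNP site, near Cep70, has 5.32 and 5.04 tags, the highest has 111.4 and 56.7, and Rnf6 has TAP marks only. At Fam154b both TAP marks are at 17.9.

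The count of RMER21A pairs turned on the distance between centres. It was 3 within 20 bp and 8 within 200 bp. The 2 further pairs were near Fam154b, 52.5 bp apart, and near Cntn6, a contactin of neural adhesion, 76 bp apart. At Cntn6 the iQNP libraries had 92.9 and 50 normalized tags and the TAP libraries 15.2 and 15.9. At Fam154b they had 47.2 and 24.8 against 17.9 and 17.9. Of the 761 pairs within 200 bp over all classes, 0.657% had centres over 50 bp apart. Among RMER21A pairs it was 2 of 8, among the 30 other repeat pairs 0, and among 626 intron and intergenic pairs outside repeats 3.

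The median distance between the iQNP and the TAP centres was 26.8 bp at the 8 RMER21A pairs (quartiles, 16.6 and 50.6). It was 12.8 bp at the other repeat pairs (5.0 and 24.8) and 12 bp outside repeats (5.5 and 20.5). By antibody, the RMER21A offset between conditions had a median of 32.5 bp with the commercial and 15.0 bp with the homemade antibodies. With the commercial antibody it was 13.5 bp at the other repeat pairs and 15 bp outside repeats. With the homemade ones these were 17.5 and 17 bp, so the RMER21A offset was wider with the commercial antibody only. Within TAP the peaks of the 2 antibodies were themselves 32.5 bp apart at the RMER21A pairs, against 16 bp outside repeats. Within iQNP they were 9.5 and 13 bp apart. The wider spacing was thus also present between antibodies in TAP. The 8 RMER21A pairs are too few for more than a description, and no test was made.

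**Figure D3:**
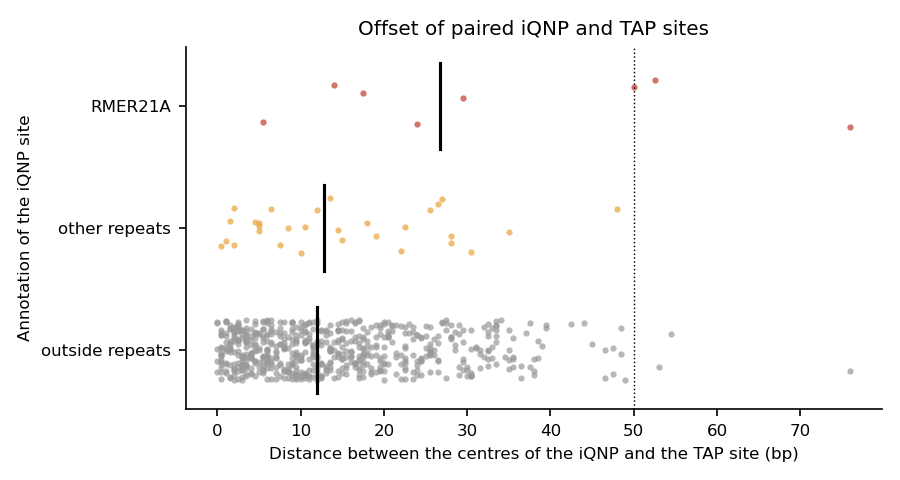
Distance in bp between the centres of the iQNP and the TAP site for pairs within 200 bp, by the annotation of the iQNP site. Each point is a pair, black bars are medians (26.8 bp at RMER21A, 12.8 bp at other repeats, 12 bp outside repeats), and the dotted line is the limit of 50 bp.

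A few repeat sites had very high input. The input mean exceeded 10 times the median of all iQNP sites at 4 of the 129 repeat sites and at 2 of the 1305 intron and intergenic sites outside repeats. In TAP it did so at 2 of 38 and 1 of 639. The L2 site near Tll1 (chr16:27940358-27940413) had 629.7 and 454.9 normalized tags in iQNP, the most of any site, with scaled input of 101 and 102.8. In TAP it had 267.6 and 237.8 with input of 89.6 and 85.1. The L2 site near Cpe (chr16:27550201-27550260), 390 kb away, had 204 and 141 normalized tags in iQNP with input of 41.6 and 43.9, and 85.9 and 73.9 in TAP with input of 39.8 and 34.6. The fold over input at these 2 sites was 17.7 and 13.2 (Tll1) and 13.9 and 9.57 (Cpe) in iQNP, below the medians of all iQNP repeat sites (23.9 and 16.5).

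The 4 rRNA copies also had high input, 2 of them over 10 times the median, and a lower fold. They were SSU-rRNA copies at chr1:187303055-187303106 near Trim72 and chr7:956580-956632 near Hsd17b6, and LSU-rRNA copies at chr2:91776776-91776852 near tGap1 and chr3:96973879-96973938 near Olr754. These repeats are copies of the RNA genes of the small and large ribosomal subunits. The site near Trim72 had 78.0 and 72.5 normalized tags with input of 51.0 and 50.9. The site near tGap1 had 62.8 and 55.1 with input of 32.1 and 37.9, the site near Olr754 had 30.9 and 29.9 with 16.1 and 17.0, and the site near Hsd17b6 had 25.2 and 26.5 with 16.1 and 16. Their fold over input was between 4.25 and 5.51, close to the lowest value in the table, and no TAP site lay within 50 bp of any of them. Reads from a repeat can map to several copies, and the part of this in the input and tag values was not tested.

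The opposite case was the RMER19A site near Galr1 (chr18:78889069-78889127). Its 168.9 and 105.8 normalized tags in iQNP stood over a scaled input of 0.5 in both libraries, and the fold over input was 1012 and 631. In TAP the same site had 70.0 and 46.1 normalized tags, input of 3.6 and 3.5, and a fold of 49.7 and 32.7. An input of 0.5 is the lowest value in the iQNP table and the next is 0.9 or 1.0, so a fold at that value rests on the least input the table can hold. The lowest input was found at 22 of the 129 repeat sites (17.1%) with the commercial scaling in iQNP, against 6.54% of all sites. With the homemade scaling it was found at 21 (16.3%) against 7.27%.

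**Figure D4:**
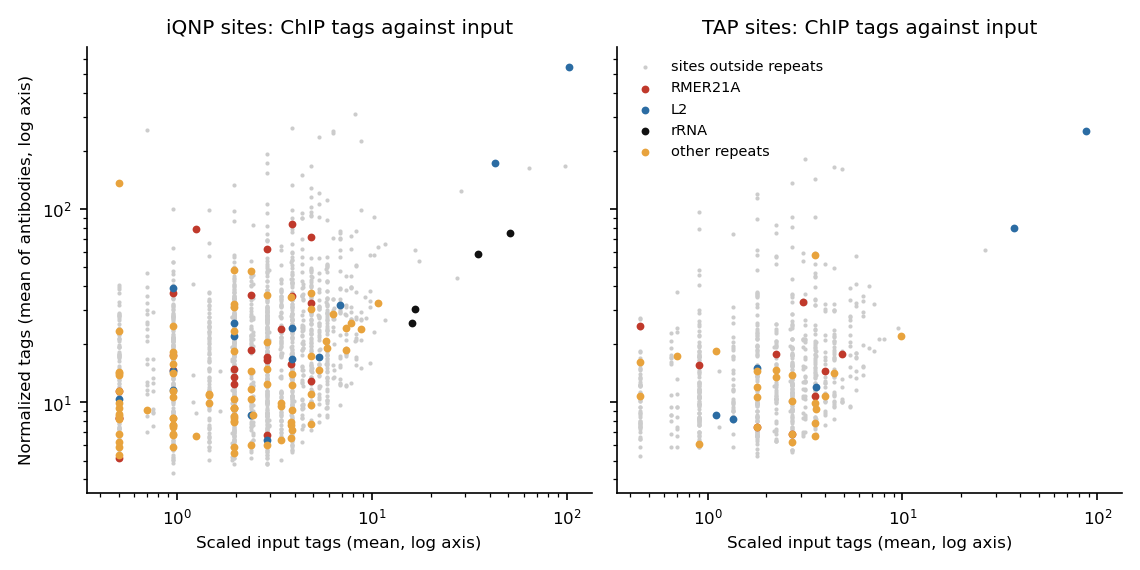
Mean normalized tags of both antibodies against mean scaled input (both log axes) for every iQNP site (left) and TAP site (right). Grey points are sites not within repeats and coloured points are repeat sites. The L2 sites near Tll1 and Cpe and the 4 rRNA sites lie to the right, with mean input from 16 to 102 in iQNP, and the RMER19A site near Galr1 lies at the lowest input of 0.5.

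Over all iQNP repeat sites, the median was 14.5 normalized tags for the commercial antibody and 10.7 for the homemade ones. The intron and intergenic sites outside repeats had 21.6 and 16.1. Scaled input was also lower at repeat sites, at 1.9 and 2.0 against 2.8 and 3.0, and the fold over input was 23.9 and 16.5 against 23.3 and 19. The tag level of repeat sites in iQNP was thus lower with both antibodies, and the fold was higher with one and lower with the other. In TAP the repeat sites had 13.4 and 11.9 normalized tags against 13.2 and 11.1 outside repeats, and a fold of 12 and 12.3 against 17.1 and 14.9. Scaled input in TAP was 2.7 and 2.25 against 1.8 and 1.8. These medians describe the sites of the libraries and were not tested.

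Of the 129 iQNP repeat sites, 36 had a TAP site within 50 bp, or 27.9% (95% Wilson interval, 20.9 to 36.2), against 42.6% of all iQNP sites. Outside repeats, 47.7% of the intron and intergenic sites had one (45.0 to 50.5). These intervals do not overlap, but they allow for counting error alone. Sites of the same libraries are not replicates, and the difference was not tested. In the other direction, 34 of the 38 TAP repeat sites had an iQNP site (89.5%; 75.9 to 95.8), against 97.2% of all TAP sites. By family, 8 of 22 MaLR sites, 7 of 25 ERV1 sites, 7 of 14 L2 sites, 3 of 5 MIR sites and 2 of 16 L1 sites had a TAP site. The share was 50% at L2 (26.8 to 73.2) and 12.5% at L1 (3.50 to 36). Those intervals overlap, and a difference between the 2 families was not tested. None of the 6 B4A sites had one, which by the Wilson interval allows a share of up to 39.0%.

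The lower share of repeat sites with a TAP site went together with fewer tags. Up to 12 mean normalized tags were found at 60 of the iQNP repeat sites (46.5%) and at 29% of the intron and intergenic sites outside repeats, and 1 of those 60 had a TAP site (1.67%), the (CCCCG)n site in Col5a3. Of the 378 such sites outside repeats, 11 had one (2.91%). Among sites with 12 to 20 tags, 9 of 30 repeat sites and 118 of 311 others had a TAP site (30.0% and 37.9%). With 20 to 50 tags it was 20 of 30 and 421 of 537 (66.7% and 78.4%), and with over 50 it was 6 of 9 and 73 of 79 (66.7% and 92.4%). The 3 repeat sites over 50 tags without a TAP site were 2 rRNA copies, near Trim72 and tGap1, and the RMER21A site near Cntn6, whose TAP site lay 76 bp away. Within each of the 4 bands over 8 tags the repeat share was the lower one, and below 8 tags none of 26 repeat sites and none of 159 others had a TAP site. How much of the difference the tag level accounts for was not tested.

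The 36 iQNP repeat sites with a TAP site were compared between conditions by edgeR's quasi-likelihood test, fitted over all 756 shared sites. At an adjusted p under 0.05, 28 of them carried more tags in iQNP. None carried more in TAP, even at an unadjusted p under 0.05. Over all shared sites 68.4% were called in the same direction, and 0% in the other, so that 77.8% of the repeat pairs compares with a background that was itself high. On the log2 scale the iQNP to TAP ratio had a median of 1.28 at the repeat pairs, 1.30 for the commercial antibody and 1.17 for the homemade ones. Over all shared sites it was 1.05, 1.16 and 0.92. Both antibodies gave more tags in iQNP at 35 of the 36 repeat pairs (98.5% of all shared sites), and both iQNP libraries lay above both TAP libraries at 33 (92.7% of all shared sites).

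By class, all 18 LTR pairs passed the test, as did 6 of 10 LINE pairs, 2 of 4 SINE pairs, 1 of 2 DNA pairs and 1 of 2 simple repeats. Of all shared sites 68.4% passed, and of the shared intron and intergenic sites outside repeats 71.3%. The LTR pairs had a median log2 ratio of 1.32, with a range of 0.87 to 2.16, and the LINE pairs had 1.11, with a range of 0.55 to 1.70. Among the LTR pairs were 8 of MaLR (median 1.28), 7 of ERV1 (1.34), and 2 of ERVK (1.41). The 6 RMER21A pairs had a median of 1.47, with 1.70 for the commercial and 1.13 for the homemade antibodies, and 5 of the 6 lay above the median of all shared sites. A difference between classes was not tested. Pairs were found by having been called in TAP, so the ratios leave out sites whose TAP tags were too few for a call.

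These calls depended on 2 things. Without either TAP library none of the 36 pairs passed (nor any of the 756), although 14 had an unadjusted p under 0.05 without the commercial and 8 without the homemade TAP library. With TMM normalization, which sets the median change of the shared sites near 0 and moved it by -1.06 on the log2 scale, 4 repeat pairs had more tags in iQNP and 2 in TAP, against 5.16% and 6.75% of all shared sites. With TMM, 3 of the 18 LTR pairs had more tags in iQNP. Permuting 2 libraries against 2 exactly allows no two-sided p smaller than 1 in 3.

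The highest ratio was at MLT1D near LOC500990 (chr8:49677869-49677937). The iQNP libraries had 58.9 and 37.6 normalized tags and the TAP libraries 12.4 and 9.13, a log2 ratio of 2.16. The adjusted p of edgeR's quasi-likelihood test was 0.000121. The next was RMER21A near Smn1 (chr2:31216612-31216663), with 79.1 and 45.0 against 16.7 and 12.3, a log2 ratio of 2.10 and an adjusted p of 0.000168 by edgeR. The third was L2 in Apaf1 (chr7:27712391-27712451), the core of the apoptosome, with 47.9 and 30.2 against 11.7 and 12.3. Its log2 ratio was 1.70 and its edgeR adjusted p 0.000752. At these 3 sites the libraries of the 2 conditions did not overlap, and at 92.7% of all shared sites both iQNP libraries lay above both TAP ones. All 3 also had more tags in iQNP under TMM, where the log2 changes were 1.09, 1.02 and 0.64 (edgeR adjusted p = 7.17e-05, 2.15e-05 and 0.0332). The fourth such pair was RMER21A near Ccnc, with 0.61 (edgeR adjusted p = 0.00874), named after its value was seen. The first 3 were picked by their ratios in the same tags, so their direction under TMM is no separate support. With DESeq2's own size factors the sites near LOC500990 and Smn1 passed and the site in Apaf1 did not (log2 change 0.63, DESeq2 adjusted p = 0.345).

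The lowest ratios were at (CCCCG)n in Col5a3, a collagen chain, at MIRb in Slc13a3, a dicarboxylate transporter, and at L2 in Kcnd3, a voltage-gated potassium channel. At Col5a3 (chr8:19832384-19832483) the iQNP libraries had 9.58 and 7.72 normalized tags and the TAP libraries 10.5 and 7.54. The log2 ratio was -0.06, and the edgeR adjusted p was 0.857. At Slc13a3 (chr3:156496101-156496177) they had 25.9 and 15.4 against 20.6 and 14.3, a log2 ratio of 0.24 (edgeR adjusted p = 0.537). At Kcnd3 (chr2:200744995-200745075) they had 28 and 16.1 against 17.9 and 12.3, a log2 ratio of 0.55 (edgeR adjusted p = 0.174, and 0.0332 with the antibody as a block). The libraries of the 2 conditions overlapped at all 3. Under TMM the sites in Col5a3 and Slc13a3 were the 2 with more tags in TAP, with log2 changes of -1.11 and -0.82 (edgeR adjusted p = 0.00524 and 0.00488). With DESeq2's own size factors neither was called (DESeq2 adjusted p = 0.196 in Slc13a3, and none given in Col5a3).

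A further 5 pairs had an edgeR adjusted p over 0.05: L2 near Tll1 (0.0674), L2 near Olfm4 (0.0639), MIRm in Crtac1 (0.0833), MER5B in Kcnip1 (0.0951) and Lx7 near Cdk4 (0.181). With the antibody as a block each of them passed, with Tll1 at an edgeR adjusted p of 0.00593, but so did 94.8% of all shared sites. The L2 sites of high input near Tll1 and Cpe had log2 ratios of 1.10 and 1.11, close to the median of all shared sites. The RMER19A site near Galr1 had a log2 ratio of 1.24 in normalized tags, although its fold over input differed far more. By the fold over input the median log2 ratio of the 36 repeat pairs was 0.73, below the 0.81 of all shared sites.

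**Figure D5:**
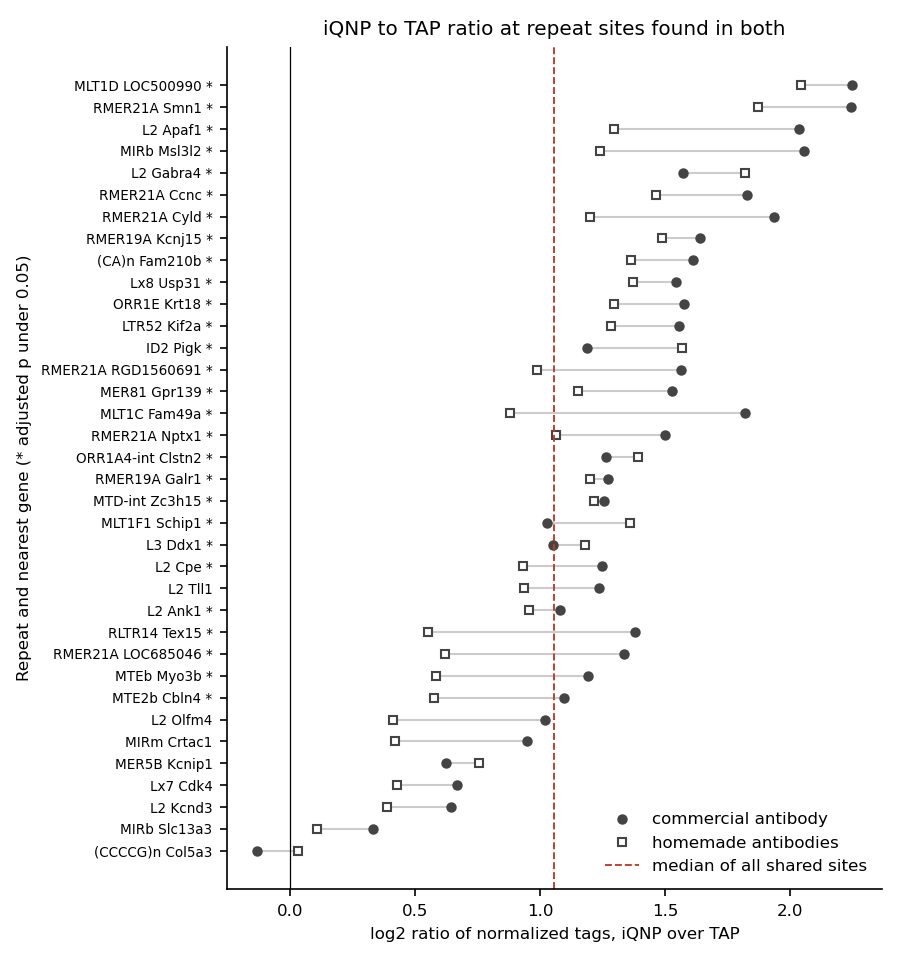
log2 ratio of normalized tags, iQNP over TAP, at the 36 iQNP repeat sites with a TAP site, for each antibody (filled circles commercial, open squares homemade). The red dashed line is the median of all shared sites (1.05), and stars mark pairs with an edgeR adjusted p under 0.05. The drawn ratios run from -0.13 at (CCCCG)n in Col5a3 to 2.25 at MLT1D near LOC500990, both with the commercial antibody. The ratios of the antibody means, not drawn, run from -0.06 to 2.16 at the same sites.

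In 4 of the 36 pairs the merged region carried the repeat label in iQNP only: L2 in Gabra4, MIRb near Msl3l2, (CCCCG)n in Col5a3 and (CA)n near Fam210b. Gabra4 encodes a subunit of the GABA-A receptor. Its iQNP libraries had 26.6 and 25.2 normalized tags and its TAP libraries 8.94 and 7.15, a log2 ratio of 1.69. The site near Msl3l2 had 29.1 and 17.8 against 7.0 and 7.54, also a log2 ratio of 1.69, and the site near Fam210b 27.3 and 22.5 against 8.94 and 8.74, a log2 ratio of 1.49. In 2 pairs it was in TAP only. MIRb near Galc, a galactosidase of lysosomes, had 18.1 and 14.1 in iQNP against 6.22 and 5.96, and (GAAAA)n near Ido1, an enzyme of tryptophan breakdown, had 31.2 and 18.1 against 12.4 and 7.54. Of the pairs labelled in both conditions 25 of 32 passed the test, and of those labelled in either 30 of 38, against 68.4% of all shared sites.

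No iQNP site lay within 50 bp of 4 TAP repeat sites. Of these, 3 were RMER21A sites, near Fam154b, Cntn6 and Rnf6, and the fourth was ORR1D-int near RGD1559903 (chr20:17035988-17036069), a MaLR element with 8.94 and 9.53 normalized tags. The sites near Fam154b and Cntn6 had the iQNP sites described above within 200 bp, while the sites near Rnf6 and RGD1559903 had none. The fold over input of those last sites was 5.25 and 9.03 (Rnf6), and 5.08 and 9.03 (RGD1559903).

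The commercial antibody gave more tags than the homemade ones at 119 of the 129 iQNP repeat sites (92.2%) and at 83.3% of all iQNP sites. On the log2 scale the commercial to homemade ratio had a median of 0.44 at repeat sites and 0.40 at all sites. It was 0.65 at the RMER21A sites, where 23 of 24 had more commercial tags, and 0.08 at the rRNA sites, where 3 of 4 did. In TAP the median was 0.18 at repeat sites, 0.16 at RMER21A sites (5 of 9 with more commercial tags) and 0.25 at all sites. With 1 library per antibody and condition, a difference between antibodies cannot be told apart from one between libraries.

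Repeat sites lay, in the median, farther from gene starts than the other intron and intergenic sites, a difference that was not tested. The median distance to the nearest TSS was 112 kb at iQNP repeat sites, 83.1 kb at RMER21A sites and 59.4 kb outside repeats. A TSS lay within 100 kb of 60 repeat sites (46.5%) and of 61.8% of the sites outside repeats. The 129 iQNP sites were nearest to 125 different genes, with 1 site left without a gene in the annotation. Only Fam49a, Nps and tGap1 were nearest to 2 repeat sites. The MLT1H and MLT1D sites near Nps, the gene of neuropeptide S, were 30.4 kb apart, with 9.22 and 9.40 normalized tags at the first and 10.3 and 7.05 at the second. The nearest genes included several channels and receptors of neurons, and the channel-interacting protein Kcnip1. Examples were Kcnk9, Kcnip1, Kcnd3 and Gabra4 with sites in introns, and Chrm3, Grm7 and Hcn4 with sites outside them. These genes were named after the list was read, and no enrichment was tested. Of these, the sites in Kcnip1, Kcnd3 and Gabra4 had a TAP site.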

How the data were processed

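REST ChIP-seq of HCN cells was analysed, with 4 ChIP libraries and an input for each condition. Reads had been aligned by the authors to rn4 with Bowtie2, and HOMER peaks of the commercial and homemade antibodies had been merged. Total tags are counts as deposited. Normalized tags, a signal, were scaled by the authors to 10000000 tags per library, and scaled input is likewise a deposited signal. Also deposited were the fold over input, a ratio, the focus ratio, a fraction, and a p-value against input. Repeat names, classes and nearest genes came from the authors' annotation of the merged peaks, joined by peak name. It repeats 1 site per condition, which was dropped.

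An iQNP and a TAP site with centres within 50 bp were paired, each site once, starting with the closest. Total tags at all 756 shared sites were tested with edgeR 4.0.16 (R 4.3.3), by its quasi-likelihood test on condition alone. Library sizes were the depths (total over normalized tags), and p-values were adjusted by Benjamini-Hochberg over all shared sites. In the commercial iQNP library that ratio was over 1.5% from its median at 144 sites. The test was checked on simulated data. The replicate number stands for the antibody, so that it pairs libraries by reagent. Site by site, antibody deviations in iQNP were barely correlated with those in TAP (0.0443). That low value does not show that the pairing can be ignored. Adding the antibody as a block lowered edgeR's coefficient of variation from 0.211 to 0.0897. Sites called with more tags in iQNP then rose from 517 to 717 of 756. The main test left this pairing out. Alternatives included TMM, DESeq2 1.42.0 and the antibody as a block. Other values were computed in Python 3.11.15.

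Named were all rRNA sites, the RMER21A sites with a TAP site and the highest and lowest RMER21A sites, the 5 highest repeat sites per condition, the highest site of each family with at least 2 iQNP sites, TAP sites without an iQNP site, the 3 highest and 3 lowest ratios, and pairs whose label differed. The members and lists were chosen with earlier results of these data known. TAP tags at iQNP sites without a TAP call were not analysed here. The highest site of 1 family is not reported here.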

Additional observations from a re-analysis of the deposited data

How the results depend on the processing

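Each result was recomputed under the alternatives, one choice at a time. Outside the named pairs, 39 of 55 values stayed within the spread between antibodies or within 1.5 times the main count. Requiring at least 8-fold over input for each antibody left 23 of the 38 TAP repeat sites, and left 22 of the 36 iQNP repeat sites with a TAP site when applied in both conditions. Centres within 20 bp left 23 of the 36, and 3 of the 6 RMER21A sites.

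The median of 13.6 normalized tags at iQNP repeat sites was 10.7 to 14.5 with a single antibody. In TAP the median fold over input of 11.9 was 12 to 12.3 with a single antibody, 13.2 for interspersed elements alone and 14.1 without the sites whose input was over 10 times the median, an alternative added after the data were seen. The scaled input in TAP was 2.25 with the homemade scaling, against 2.7.

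The median log2 ratio of the repeat pairs, 1.28, was 0.73 by fold over input, 0.23 with TMM, and 1.17 to 1.30 with a single antibody. The count of repeat pairs with more tags in iQNP, 28 of 36, was 4 with TMM, 2 with DESeq2's own size factors (which gave no adjusted p at 14 of the 36), and 0 to 33 without a single library. The highest, without the homemade iQNP library, stood beside 94.7% of all shared sites. The counts with TMM and with DESeq2's own size factors stood beside 5.16% and 0.397% of all shared sites. With the replicate block the count was 34 (94.4%, against 94.8% of all shared sites). With DESeq2 on the depths it was 28 (67.3% of all), and with at least 20 tags in every library 21 of 27 (66.1% of all). The cause of these shifts was not tested, except that TMM and DESeq2's own size factors take the shift common to the shared sites as 0.

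Refits of the 6 named pairs were added after the data were seen. The pairs had been picked as the 3 highest and 3 lowest ratios of the same tags. The log2 change at MIRb in Slc13a3 turned to -0.82 with TMM and with DESeq2's own size factors, and ranged from -0.18 to 0.56 without a single library. At L2 in Kcnd3 it turned to -0.52 with both. At (CCCCG)n in Col5a3 it was -1.11 with both, and ranged from -0.28 to 0.19 without a single library. Neither Slc13a3 nor Col5a3 was called by DESeq2 with its own size factors (adjusted p = 0.196, and none given). The other 3 kept their direction under every refit, but none of them passed without either TAP library, and L2 in Apaf1 did not pass with DESeq2's own size factors (log2 change 0.63, adjusted p = 0.345).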
